A study of Homo sapiens with 24 samples.

Results

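Transcription factors of the erythroid and megakaryocytic lineages, the 10 genes GATA1, GATA2, TAL1, KLF1, NFE2, FLI1, RUNX1, GFI1B, ZFPM1 and MEIS1, were followed by symbol across a series of SET2 RNA-seq libraries. All 10 of 10 were found in the deposited table of 25082 genes, and all 10 passed the filter on low values. SET2 is an established megakaryoblastic cell line from a myeloproliferative neoplasm with mutated JAK2. Each of the 8 groups has 3 libraries, 24 in all. In 4 groups the cells are lines kept in continuous culture with a type I JAK inhibitor: BMS911543, CYT387 (momelotinib), INC424 (ruxolitinib) or SAR302503 (fedratinib), and are called persistent. The others are naive SET2 cells exposed to INC424 during 4 h or 48 h, naive cells with DMSO during 4 h, and naive cells with no exposure. All were grown in RPMI1640 with serum. The labels give no inhibitor dose, no length of the chronic exposure and no statement of whether a line is 1 clone, and nothing says that replicates came from separate cultures, so p-values measure the spread between libraries, which may be technical. The question was whether factor RNA moves with erythroid genes and platelet genes in each persistent line.

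Blood progenitors that can form red cells or megakaryocytes share a set of DNA-binding factors. GATA2 acts in stem and progenitor cells and is replaced at many sites by GATA1 as cells mature, with ZFPM1 (FOG-1) as the cofactor bound to GATA1. TAL1 joins the GATA factors in a complex bridged by LMO2 and LDB1, GFI1B is a repressor of the same program, KLF1 drives the red cell side, FLI1 and RUNX1 the megakaryocyte side, NFE2 serves platelet release and globin transcription, and MEIS1 is a homeobox factor of stem cells and megakaryocyte progenitors.

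Promoter sequences are shown for the 3 members with the largest log2 differences of a line from naive cells or of INC424 from DMSO. These were GATA2 (-1.98) and ZFPM1 (1.48) in the BMS911543 line and KLF1 (1.43) after 48 h of INC424. ZFPM1 was also higher with DMSO than in naive cells, by 1.61. The members were chosen after their values were seen. The sequences are RefSeq entries of GRCh38.p14, which is not the build named for the deposited files. They run from 250 bases before to 50 bases after the gene start, 300 bases in all. RefSeq entries matched 8 of the 10 members. The 2 GATA2 starts are at chr3:128493152-128493451 and chr3:128488481-128488780 on the minus strand, the first being upstream of the second. KLF1 is at chr19:12887152-12887451 on the minus strand, and ZFPM1 at chr16:88453030-88453329 on the plus strand. Capitals mark GATA words (the words AGATAA with its variant AGATAG and TGATAA with its variant TGATAG) and KLF words (CCNCNCCC) on either strand, and overlapping words run together.
GATA2 upstream start: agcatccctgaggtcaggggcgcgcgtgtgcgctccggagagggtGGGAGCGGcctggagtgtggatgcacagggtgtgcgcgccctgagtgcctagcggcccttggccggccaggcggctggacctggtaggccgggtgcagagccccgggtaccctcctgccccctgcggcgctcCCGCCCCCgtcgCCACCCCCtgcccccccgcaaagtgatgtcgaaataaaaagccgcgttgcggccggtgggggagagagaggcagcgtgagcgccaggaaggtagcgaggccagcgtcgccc
GATA2 downstream start: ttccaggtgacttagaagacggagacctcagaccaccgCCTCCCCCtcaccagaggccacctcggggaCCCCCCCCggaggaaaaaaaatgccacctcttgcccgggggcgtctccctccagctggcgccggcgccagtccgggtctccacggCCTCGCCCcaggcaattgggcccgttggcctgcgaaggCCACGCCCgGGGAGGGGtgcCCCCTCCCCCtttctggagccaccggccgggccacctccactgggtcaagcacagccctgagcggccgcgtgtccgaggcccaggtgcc
KLF1: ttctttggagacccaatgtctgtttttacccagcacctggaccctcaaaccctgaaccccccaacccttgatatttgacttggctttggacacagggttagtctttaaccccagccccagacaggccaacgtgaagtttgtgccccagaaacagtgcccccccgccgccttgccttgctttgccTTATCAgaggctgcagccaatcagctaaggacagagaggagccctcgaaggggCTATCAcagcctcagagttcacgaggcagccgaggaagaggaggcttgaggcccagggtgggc
ZFPM1: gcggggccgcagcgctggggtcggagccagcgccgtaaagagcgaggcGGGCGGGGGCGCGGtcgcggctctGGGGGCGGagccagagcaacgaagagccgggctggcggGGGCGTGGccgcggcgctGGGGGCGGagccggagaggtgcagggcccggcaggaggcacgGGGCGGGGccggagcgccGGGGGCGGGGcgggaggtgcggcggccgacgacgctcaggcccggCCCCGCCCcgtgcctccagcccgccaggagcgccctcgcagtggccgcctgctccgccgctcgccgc
KLF1 holds 2 GATA words and no KLF word. GATA2 holds no GATA word, with 3 KLF words at the upstream start and 7 at the downstream one, and ZFPM1 holds no GATA word and 9 KLF words. Of 35116 promoters of the same length, 25.0% hold a GATA word and 56.2% a KLF word. RUNX words (TGTGGT and its variant TGCGGT) are in 19.6% and NF-E2 words (TGACTCA and, on the other strand, TGAGTCA) in 4.95%, and none of the printed promoters holds either. A match is a description of letters and not a site of binding.

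Depth was 21770721 to 36160750 reads per library. Megakaryoblastic markers were present throughout: ITGA2B, the platelet integrin chain, had 41778 to 118546 normalised counts (reads divided by a size factor per library) over the 24 libraries. Replicate 2 of the CYT387 line stood apart. Its 15 squamous epithelial markers took 0.567% of reads, against at most 0.114% elsewhere, and its stroma and macrophage markers 0.130%, against at most 0.0015% elsewhere. In that library KRT5 reached 64415 and COL1A1 7512 normalised counts, against medians of 184 and 34.2 over all libraries. Summed squamous markers also reached 33982 normalised counts in the SAR302503 line and 9079 in the INC424 line, against at most 775 in naive cells. Of the lymphoid markers, CD79A reached 1062, CD3E 187 and CD3D 172 normalised counts at most. Summed lymphoid markers were highest in naive cells and the SAR302503 line, at 1576 to 2340 in SAR302503 and 2271 to 2359 in naive cells, and lowest in the BMS911543 line, at 637 to 686. Against naive cells, 6 of 14 tested squamous markers rose in the SAR302503 line, 2 in INC424 and 1 in CYT387, while 1 fell in BMS911543. These are 42.9%, 14.3%, 7.14% and 7.14% of the list, where 19.3%, 22.5%, 22.3% and 24.6% of all genes passed. Of 8 tested stroma and macrophage markers, 4 rose in the CYT387 line and 1 in INC424, while 1 fell in each of BMS911543 and SAR302503. Of 8 lymphoid markers, 3 fell in each of BMS911543, CYT387 and INC424, and in SAR302503 1 rose and 1 fell. Beside the same shares of all genes, the stroma and macrophage calls are 50% in CYT387 and 12.5% in each other line. The lymphoid calls are 37.5% in BMS911543, CYT387 and INC424 and 25% in SAR302503. Squamous markers that rose numbered 10 in SAR302503, 7 in INC424 and 0 in CYT387 without replicate 2 of the CYT387 line. Stroma and macrophage markers that rose in CYT387 then numbered 1. Of all genes 30.6%, 33.3% and 18.4% passed in SAR302503, INC424 and CYT387 without that library. Their part in the results below was not tested, and results that rest on replicate 2 of the CYT387 line are given with and without it. Since all groups share 1 estimate of the spread, leaving that library out also moves adjusted p in comparisons that do not include it.

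Per kilobase of principal transcript, a scale on which genes can be compared, naive cells held most GATA2, with 9810 normalised counts per kb, and NFE2, with 8982. GATA1 had 5204, KLF1 2997, GFI1B 2596, TAL1 1546, FLI1 1139 and RUNX1 844 normalised counts per kb. MEIS1 with 74.8 and ZFPM1 with 38.7 were far lower. Over the 8 group means, GATA2 spanned the widest range, 3.97-fold from lowest to highest, followed by ZFPM1 at 3.10-fold, MEIS1 at 2.85-fold and KLF1 at 2.82-fold. GATA1 spanned 1.30-fold, and every group overlapped its neighbour in the order of means. GATA2 means ran from 33029 in naive cells through 27082 at 48 h of INC424, 26227 in the CYT387 line, 24888 with DMSO, 18895 at 4 h of INC424, 18053 in the SAR302503 line and 14061 in the INC424 line to 8323 in the BMS911543 line. Among these, neighbours overlapped except DMSO with 4 h of INC424 and the INC424 line with the BMS911543 line.

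**Figure D1:**
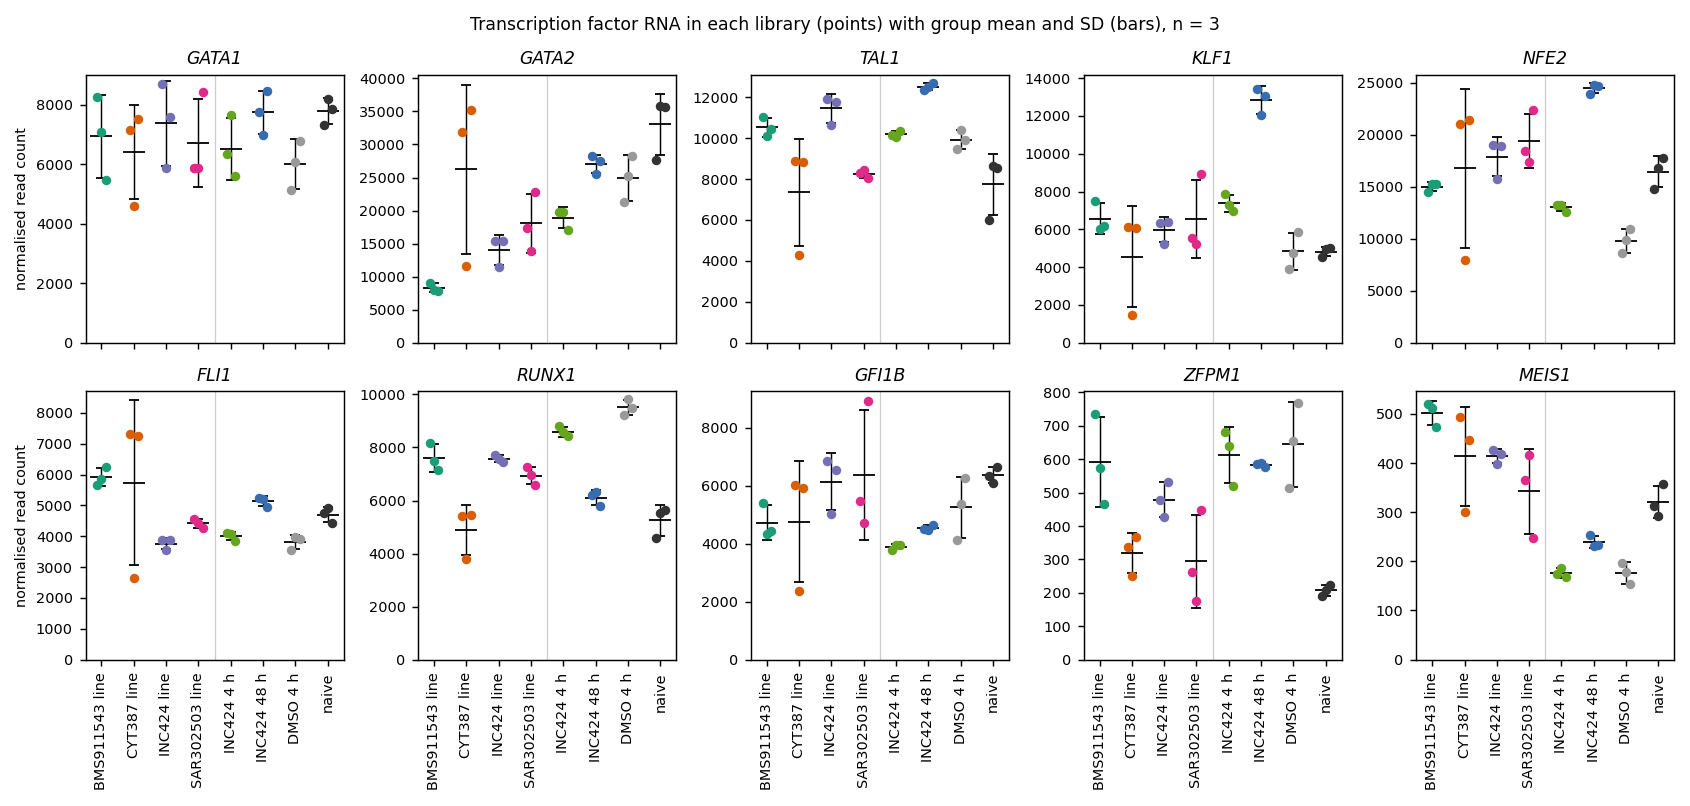
Normalised read count (linear axis from 0) of each factor in each library; points are libraries, bars the mean and SD of 3 libraries per group, with persistent lines left of the grey line. GATA2 is lowest in the BMS911543 line, at 7873 to 9067, and replicate 2 of the CYT387 line is the lowest of its group for all 10 factors.

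GATA2 RNA fell in 3 of the 4 persistent lines, and most in the BMS911543 line. It had 9067, 8030 and 7873 normalised counts in the BMS911543 line, 31817, 11606 and 35258 in the CYT387 line, 15360, 11433 and 15391 in the INC424 line and 17411, 13884 and 22864 in the SAR302503 line, against 27656, 35787 and 35644 in naive cells. Every BMS911543, INC424 and SAR302503 library was below every naive library, while CYT387 overlapped naive. The log2 difference was -1.98 ± 0.27 (SE, n = 3 each, limma adjusted p = 8.66e-06) in the BMS911543 line and -1.24 ± 0.27 (adjusted p = 0.00172) in the INC424 line. In the SAR302503 line it was -0.89 ± 0.27 (limma adjusted p = 0.0236). The SAR302503 call was lost without replicate 1 (limma adjusted p = 0.0635) or replicate 2 (adjusted p = 0.111) of that line, or without naive replicate 2 (adjusted p = 0.0802) or 3. In the CYT387 line the difference was -0.48 (limma adjusted p = 0.203) and, without its replicate 2, 0.03 (adjusted p = 0.929). With DMSO GATA2 had 21291, 25162 and 28211, overlapping naive cells. Its log2 difference from them was -0.41 (limma adjusted p = 0.296, or 0.0361 without replicate 2 of the CYT387 line). In bulk RNA, fewer cells of a type and less RNA per cell cannot be told apart.

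GATA1 passed the test in none of the 16 comparisons, and the balance between both GATA factors lay higher in the 3 lines where GATA2 fell. The balance contains GATA2, so in these lines it largely restates that fall and is not a separate result. GATA1, the central activator of both lineages, had 8267, 7077 and 5484 normalised counts in the BMS911543 line and 8699, 5869 and 7593 in the INC424 line. It had 5870, 5877 and 8420 in the SAR302503 line and 7146, 4612 and 7522 in the CYT387 line, against 7328, 8189 and 7855 in naive cells. Every line overlapped naive cells. The log2 GATA1 minus log2 GATA2 balance was -0.28 ± 0.21 (SD, n = 3) in the BMS911543 line, -0.93 ± 0.10 in the INC424 line and -1.42 ± 0.17 in the SAR302503 line, against -2.08 ± 0.14 in naive cells. The differences were 1.80, 1.14 and 0.66, each with no overlap and an exact two-sided permutation p of 0.1, the smallest that 3 against 3 allows (0.12 adjusted over 12 such tests). In the CYT387 line it was 0.17 (exact permutation p = 0.9) and, without its replicate 2, -0.12. After INC424 in naive cells the balance was -1.54 ± 0.15 at 4 h and -1.81 ± 0.09 at 48 h, against -2.05 with DMSO, differences of 0.51 and 0.24 (exact permutation p = 0.1 each).

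**Figure D2:**
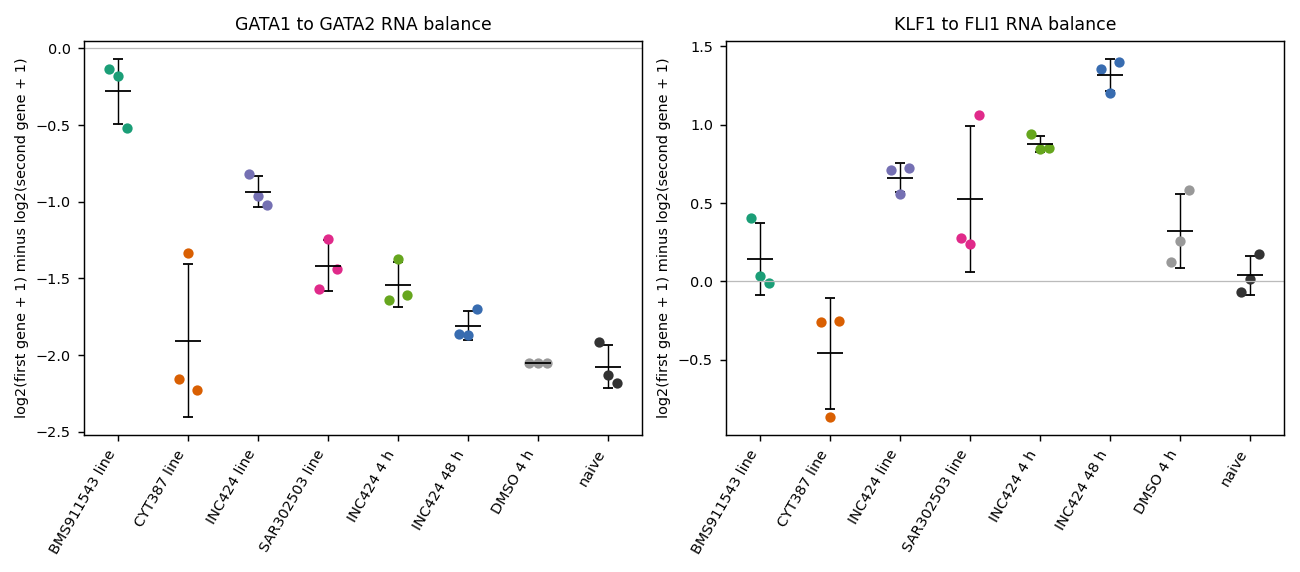
Log2 ratio of GATA1 to GATA2 (left) and of KLF1 to FLI1 (right) RNA in each library, with mean and SD of 3 libraries per group. The GATA1 to GATA2 ratio averages -0.28 in the BMS911543 line and -2.08 in naive cells, and the KLF1 to FLI1 ratio is highest after 48 h of INC424, at 1.32.

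ZFPM1, RUNX1, TAL1 and MEIS1 were the members that rose in a persistent line. ZFPM1 had 736, 574 and 467 normalised counts in the BMS911543 line and 477, 427 and 532 in the INC424 line, against 191, 209 and 224 in naive cells, with no overlap. The log2 differences were 1.48 ± 0.25 (SE, limma adjusted p = 9.23e-05) and 1.20 ± 0.25 (adjusted p = 0.000911). In the CYT387 line ZFPM1 had 336, 251 and 368 and in the SAR302503 line 261, 175 and 447, with log2 differences of 0.60 (limma adjusted p = 0.0840) and 0.40 (adjusted p = 0.287). DMSO-treated cells overlapped the BMS911543 line, with 513, 654 and 768, a log2 difference of 1.61 ± 0.25 over naive cells (limma adjusted p = 4.56e-05).

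RUNX1, partner of CBFB and a factor of megakaryocyte maturation, had 8170, 7478 and 7158 normalised counts in the BMS911543 line, 7711, 7580 and 7446 in the INC424 line and 7250, 6963 and 6602 in the SAR302503 line, against 4577, 5535 and 5642 in naive cells. No library of these 3 lines overlapped naive cells, and CYT387 did, with 5421, 3801 and 5452. The log2 differences were 0.54 ± 0.12 (SE, limma adjusted p = 0.00153), 0.54 ± 0.12 (adjusted p = 0.00163) and 0.41 ± 0.12 (adjusted p = 0.0166). The SAR302503 call was lost without its replicate 1 (limma adjusted p = 0.0641) or naive replicate 1 (adjusted p = 0.0857). DMSO-treated cells again stood higher than naive cells, with 9228, 9816 and 9500, a log2 difference of 0.86 ± 0.12 (limma adjusted p = 1.12e-05).

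TAL1 had 11920, 10642 and 11784 normalised counts in the INC424 line, against 6000, 8657 and 8543 in naive cells, a log2 difference of 0.58 ± 0.19 (SE, limma adjusted p = 0.0255). The groups did not overlap, and the call was lost without INC424 replicate 1 (limma adjusted p = 0.0819) or 3 (adjusted p = 0.0767) or naive replicate 1 (adjusted p = 0.155). In the BMS911543 line TAL1 had 11015, 10106 and 10429, with a log2 difference of 0.46 (limma adjusted p = 0.0740, or 0.000989 without replicate 2 of the CYT387 line). In the SAR302503 line the log2 difference was 0.11 and in the CYT387 line -0.13, or 0.22 without replicate 2. With DMSO TAL1 had 9444, 10371 and 9927, overlapping the BMS911543 line. Its log2 difference from naive cells was 0.38 there (limma adjusted p = 0.144, or 0.00546 without replicate 2 of the CYT387 line). MEIS1 had 521, 512 and 474 in the BMS911543 line, against 313, 293 and 357 in naive cells, a log2 difference of 0.65 ± 0.19 (limma adjusted p = 0.0145) that was lost without naive replicate 2 (limma adjusted p = 0.0590). DMSO-treated cells went the other way for MEIS1, with 197, 178 and 153, a log2 difference of -0.86 ± 0.19 from naive cells (limma adjusted p = 0.00173).

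KLF1, NFE2, FLI1 and GFI1B passed the test against naive cells in no persistent line. KLF1 had 7499, 6021 and 6192 normalised counts in the BMS911543 line, 6313, 5205 and 6396 in the INC424 line and 5526, 5219 and 8937 in the SAR302503 line, against 4530, 4945 and 5010 in naive cells. The 9 libraries of these lines lay above the naive range, with log2 differences of 0.44 (limma adjusted p = 0.388), 0.30 (adjusted p = 0.588) and 0.40 (adjusted p = 0.456). KLF1 had 6114, 1457 and 6079 in the CYT387 line, where replicate 2 was at 23.9% of the mean of the other 2 libraries. Without that library KLF1 in the BMS911543 line had a limma adjusted p of 0.0309 at the same log2 difference. With DMSO KLF1 had 3881, 4756 and 5852, overlapping naive cells and the INC424 and SAR302503 lines.

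GFI1B, the repressor, passed the test in none of the 16 comparisons. It had 5414, 4328 and 4443 normalised counts in the BMS911543 line, 6007, 2351 and 5919 in the CYT387 line, 6863, 5020 and 6537 in the INC424 line and 5455, 4727 and 8923 in the SAR302503 line, against 6334, 6088 and 6652 in naive cells. The BMS911543 and CYT387 libraries all lay below the naive range, with log2 differences of -0.43 (limma adjusted p = 0.254) and -0.54 (adjusted p = 0.137), while INC424 and SAR302503 overlapped it. Without replicate 2 of the CYT387 line the CYT387 difference was -0.09, and the BMS911543 one passed at a limma adjusted p of 0.0482. With DMSO GFI1B had 4141, 5367 and 6252, overlapping naive cells and the BMS911543 line. Its log2 difference from naive cells was -0.29 there (limma adjusted p = 0.447). NFE2, the p45 subunit of a dimer with small MAF proteins, had 14502, 15223 and 15294 in the BMS911543 line, 19011, 15721 and 18905 in the INC424 line and 18455, 17387 and 22361 in the SAR302503 line, against 14821, 16832 and 17737 in naive cells, all 3 lines overlapping. FLI1 had 4571, 4420 and 4277 in the SAR302503 line and 3864, 3543 and 3869 in the INC424 line, where all libraries were below the naive range of 4437 to 4904 (log2 difference -0.32, limma adjusted p = 0.341). In the BMS911543 line FLI1 had 5654, 5870 and 6248, all above the naive range (0.33, limma adjusted p = 0.314). FLI1 passed in both without replicate 2 of the CYT387 line, lower in INC424 (limma adjusted p = 0.00218) and higher in BMS911543 (adjusted p = 0.00154). With DMSO FLI1 had 3570, 3970 and 3912, overlapping the INC424 line. Its log2 difference from naive cells was -0.30 there (limma adjusted p = 0.358, or 0.00374 without that library).

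No member passed in the CYT387 line with all 3 libraries. FLI1, an ETS factor of megakaryocytes, had 7309, 2658 and 7259 normalised counts there, against 4759, 4904 and 4437 in naive cells. NFE2 had 21011, 7945 and 21393, against 14821, 16832 and 17737 in naive cells. Replicates 1 and 3 were above every naive library and replicate 2 below every one for both genes, as they were for KLF1 and TAL1. With all 3 libraries the log2 differences were 0.15 (limma adjusted p = 0.655) for FLI1 and -0.10 (adjusted p = 0.772) for NFE2. Without replicate 2 they were 0.63 (limma adjusted p = 9.32e-06) and 0.37 (adjusted p = 0.0289), and ZFPM1 (0.76, adjusted p = 0.0404) and MEIS1 (0.55, adjusted p = 0.0315) passed as well. All 10 members were lower in replicate 2, from 23.9% of the mean of replicates 1 and 3 for KLF1 to 71.4% for ZFPM1.

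In counts, 3 members rose and 1 fell of 10 in the BMS911543 line, where 24.6% of the 20154 genes tested passed in either direction; without replicate 2 of the CYT387 line 6 rose and 2 fell, against 35.4%. In the INC424 line 3 rose and 1 fell, against a background of 22.5% (3 and 2 against 33.3% without that library), and in the SAR302503 line 1 rose and 1 fell against 19.3% (1 and 1 against 30.6%). For the CYT387 line 0 passed, against 22.3%, and 1 had an unadjusted p under 0.05; without its replicate 2, 4 rose, against 18.4%. Over the mean of the 4 lines, GATA2 fell (-1.15, limma adjusted p = 0.000404), while ZFPM1 (0.92, adjusted p = 0.00138) and RUNX1 (0.34, adjusted p = 0.0101) rose, 3 of 10 against a background of 21.8%. Over that mean 5 rose and 1 fell without replicate 2 of the CYT387 line, against 30.8%, with TAL1 (0.34, limma adjusted p = 0.00227), KLF1 (0.37, adjusted p = 0.0268) and MEIS1 (0.41, adjusted p = 0.0164) added. The RUNX1 call was lost without naive replicate 1 (limma adjusted p = 0.113). DMSO against naive cells called 2 members higher and 2 lower, against 26.0% (3 and 4 against 37.8% without that library); NFE2 was the remaining one, at -0.75 (limma adjusted p = 0.0200), and lost its call without DMSO replicate 1 (limma adjusted p = 0.0840) or 2 (adjusted p = 0.0501) or naive replicate 2 (adjusted p = 0.0557) or 3 (adjusted p = 0.0708).

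**Figure D3:**
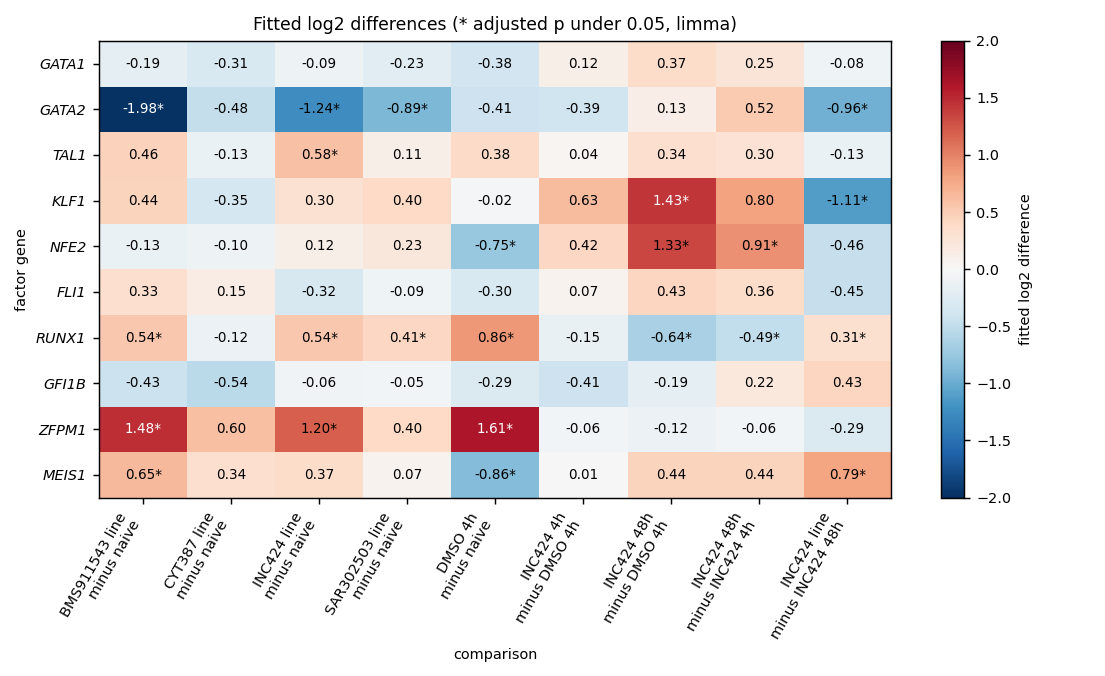
Fitted log2 difference of each factor (rows) in 9 comparisons (columns), red for higher and blue for lower in the first-named group, with an asterisk where limma's adjusted p was under 0.05. GATA2 is marked lower in the BMS911543, INC424 and SAR302503 lines, and KLF1 and NFE2 are marked higher after 48 h of INC424.

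After 48 h of INC424 KLF1 and NFE2 rose and RUNX1 fell. KLF1, the red cell activator, had 7854, 7298 and 6954 normalised counts at 4 h and 13442, 12030 and 13077 at 48 h, against 3881, 4756 and 5852 in DMSO-treated cells. NFE2 had 13285, 13222 and 12597 at 4 h and 23950, 24798 and 24698 at 48 h, against 8591, 9865 and 10924 with DMSO. For both genes neither time overlapped DMSO, and the 48 h libraries were above the 4 h ones. At 48 h the log2 differences from DMSO were 1.43 ± 0.34 (SE, limma adjusted p = 0.00220) for KLF1 and 1.33 ± 0.23 (adjusted p = 0.000123) for NFE2. RUNX1 fell at 48 h, with 6212, 6317 and 5776, against 9228, 9816 and 9500 with DMSO, a log2 difference of -0.64 ± 0.12 (limma adjusted p = 0.000192). GATA2, which fell in 3 persistent lines, had a log2 difference of 0.13 at 48 h (limma adjusted p = 0.761). These 3 of 10 members stand beside a background of 33.9%, and without replicate 2 of the CYT387 line 5 rose and 1 fell, against 44.5%. TAL1 had 10168, 10044 and 10354 at 4 h and 12344, 12510 and 12685 at 48 h, against 9444, 10371 and 9927 with DMSO, and FLI1 had 4098, 4066 and 3857 at 4 h and 5258, 5222 and 4953 at 48 h, against 3570, 3970 and 3912. Both were above DMSO in all 48 h libraries without passing the test (0.34, limma adjusted p = 0.174, and 0.43, adjusted p = 0.149). Both passed without replicate 2 of the CYT387 line, TAL1 at a limma adjusted p of 0.00958 and FLI1 at an adjusted p of 7.92e-05, and so did MEIS1 at an adjusted p of 0.0257. GATA1, GFI1B, ZFPM1 and MEIS1 did not pass with all libraries, with log2 differences of 0.37, -0.19, -0.12 and 0.44. The DMSO cells were taken at 4 h only, so for the 48 h group time in culture and inhibitor cannot be told apart.

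At 4 h 0 members passed against DMSO in limma, 0 had an unadjusted p under 0.05, and the background was 8.37%; edgeR and DESeq2 each called 0. The largest log2 differences at 4 h were 0.63 for KLF1 (limma adjusted p = 0.319) and 0.42 for NFE2 (adjusted p = 0.336). Of nearly the size of NFE2 were GFI1B at -0.41 (limma adjusted p = 0.423) and GATA2 at -0.39 (adjusted p = 0.477). For both of these, all 4 h libraries lay below the DMSO range. Without replicate 2 of the CYT387 line KLF1 and NFE2 passed, at limma adjusted p of 0.00634 and 0.00642, and 0 members were called lower, against a background of 16.7%. Between 48 h and 4 h, NFE2 rose (0.91 ± 0.23, limma adjusted p = 0.00977) and RUNX1 fell (-0.49 ± 0.12, adjusted p = 0.00561), 2 of 10 against 14.7%. Leaving out replicate 2 of the CYT387 line, 6 rose and 1 fell, against 25.5%, among them KLF1 (0.80, limma adjusted p = 0.000480, against 0.123 with all libraries). The KLF1 to FLI1 balance was 0.88 ± 0.05 (SD, n = 3) at 4 h and 1.32 ± 0.10 at 48 h, against 0.32 ± 0.24 with DMSO, differences of 0.56 and 1.00 with exact permutation p of 0.1 each, the smallest possible. In the persistent lines that balance differed from naive cells by 0.62 in INC424, 0.49 in SAR302503 and -0.50 in CYT387 (exact permutation p = 0.1 each), and by 0.10 in BMS911543 (exact permutation p = 0.6). In CYT387 it was lowest in replicate 2, and -0.30 without it.

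The INC424 line was set against the same compound given for 48 h. GATA2 had 15360, 11433 and 15391 normalised counts in the line, against 28221, 25526 and 27501 at 48 h (log2 difference -0.96 ± 0.27, limma adjusted p = 0.00988). KLF1 had 6313, 5205 and 6396 in the line, against 13442, 12030 and 13077 at 48 h (-1.11 ± 0.34, limma adjusted p = 0.0157). Both were without overlap, and both calls were lost without INC424 line replicate 2 (limma adjusted p = 0.0549 and 0.0598). MEIS1 was higher in the line, with 426, 398 and 419, against 253, 232 and 232 at 48 h (0.79 ± 0.19, limma adjusted p = 0.00272). RUNX1 was higher by 0.31 (adjusted p = 0.0468), a call that held in 16 of 40 alternatives. The 4 called members stand beside a background of 29.9%. In the fit without replicate 2 of the CYT387 line 3 were higher and 4 lower in the INC424 line, against 40.6%; NFE2 (-0.46, limma adjusted p = 0.00103), FLI1 (-0.45, adjusted p = 4.82e-05) and GFI1B (0.42, adjusted p = 0.0472) were added.

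Between persistent lines, the BMS911543 line had less GATA2 than CYT387 (-1.50, limma adjusted p = 0.000234) and than SAR302503 (-1.09, adjusted p = 0.00501), and more ZFPM1 than both (0.89, adjusted p = 0.00898, lost without BMS911543 replicate 1 at adjusted p = 0.0567, and 1.09, adjusted p = 0.00239). RUNX1 was lower in CYT387 than in INC424 (-0.65, limma adjusted p = 0.000259) and than in SAR302503 (-0.52, adjusted p = 0.00219). RUNX1 was higher in BMS911543 than in CYT387 (0.65, limma adjusted p = 0.000210). TAL1 was lower in CYT387 than in INC424 (-0.71, limma adjusted p = 0.00679; -0.37, adjusted p = 0.0210, without CYT387 replicate 2) and higher in BMS911543 than in CYT387 (0.59, adjusted p = 0.0187), the second call being lost without CYT387 replicate 2 (0.25, adjusted p = 0.110) or BMS911543 replicate 1 (adjusted p = 0.0588). GATA2 was higher in CYT387 than in INC424 (0.76, limma adjusted p = 0.0460, held in 14 of 40 alternatives), with replicate 2 of CYT387 inside the INC424 range, and was 1.27 (limma adjusted p = 3.51e-06) without that replicate. ZFPM1 was higher in INC424 than in SAR302503 (0.80, limma adjusted p = 0.0341, held in 33 of 40 alternatives), although the groups overlapped, and MEIS1 higher in BMS911543 than in SAR302503 (0.58, adjusted p = 0.0269, held in 31). FLI1 was higher in BMS911543, with 5654, 5870 and 6248 normalised counts, than in INC424, with 3864, 3543 and 3869 (0.66, limma adjusted p = 0.0487, held in 10 of 40 alternatives). Called members were 4 of 10 for BMS911543 against CYT387 (background 31.4%), 1 against INC424 (16.5%) and 3 against SAR302503 (25.5%). They were 3 for CYT387 against INC424 (24.4%), 1 for CYT387 against SAR302503 (26.3%) and 1 for INC424 against SAR302503 (12.7%). They were, without replicate 2 of the CYT387 line, 5 for BMS911543 against CYT387 (30.6%), 2 against INC424 (27.3%) and 6 against SAR302503 (38.1%), then 4 for CYT387 against INC424 (24.3%), 4 for CYT387 against SAR302503 (26.8%) and 3 for INC424 against SAR302503 (22.7%). Among the differences added were FLI1 higher in CYT387 than in INC424 (0.96, limma adjusted p = 8.66e-09) and than in SAR302503 (0.72, adjusted p = 9.12e-07), and GATA2 lower in BMS911543 than in INC424 (-0.75, adjusted p = 0.000591). RUNX1 in CYT387 against SAR302503 was then -0.35 (limma adjusted p = 0.00743).

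More erythroid genes rose than fell in every line, with the fewest rising in the CYT387 line. Of 48 listed genes for haemoglobins, haem synthesis and the red cell membrane, 47 were tested. In the INC424 line 29 rose and 3 fell (median log2 difference 1.07), in the BMS911543 line 29 rose and 5 fell (0.94) and in the SAR302503 line 27 rose and 2 fell (0.66), while the median of all genes lay within 0.03 of 0. These are 68.1%, 72.3% and 61.7% of the list, where 22.5%, 24.6% and 19.3% of all genes passed. In the CYT387 line 15 rose and 4 fell (0.03), or 21 and 5 (0.44) without replicate 2. The first is 40.4% of the list, where 22.3% of all genes passed. Without replicate 2, 18.4% of all genes passed. The embryonic globin HBE1 had 24569 ± 2115 normalised counts in the INC424 line and 13228 ± 3070 in the SAR302503 line, against 690 ± 165 in naive cells (SD, n = 3). The alpha globin HBA2 had 12909 ± 2550 in the BMS911543 line and 1741 ± 1090 in the CYT387 line, against 196 ± 25.1 in naive cells; HBA1 and HBA2 are near copies and reads may be split between them. At 48 h of INC424 26 rose and 1 fell (0.74), among them ALAS2, the first enzyme of haem synthesis in red cells, with 8634 ± 233, against 1056 ± 115 with DMSO. At 4 h 4 rose and 3 fell (0.14), or 14 and 3 without replicate 2 of the CYT387 line, where 16.7% of all genes passed. The called share of the list was 57.4% at 48 h and 14.9% at 4 h, where 33.9% and 8.37% of all genes passed. With DMSO 13 rose and 5 fell against naive cells (0.15), 38.3% of the list, where 26.0% of all genes passed. Rises thus outnumbered falls in this control too.

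Platelet genes moved in both directions, with more falling than rising in the SAR302503 line alone among the 4 lines. Of 45 listed genes 41 were tested. In the CYT387 line 22 rose and 2 fell (median log2 difference 0.90), in the INC424 line 21 rose and 9 fell (0.75), in the BMS911543 line 14 rose and 10 fell (0.45) and in the SAR302503 line 6 rose and 10 fell (-0.02). The called shares were 58.5%, 73.2%, 58.5% and 39.0% in that order, where 22.3%, 22.5%, 24.6% and 19.3% of all genes passed. SAR302503 had 11 that rose and 14 that fell without replicate 2 of the CYT387 line, and CYT387 had 27 and 3. Of all genes 30.6% and 18.4% then passed. THBS1, a platelet granule protein, had 24499 ± 586 normalised counts in the BMS911543 line, against 665 ± 71.0 in naive cells. PPBP, a platelet chemokine, had 1129 ± 510 in the CYT387 line and 466 ± 35.7 in the INC424 line, against 15.2 ± 6.55 in naive cells. The fibrin-linking subunit F13A1 fell to 29.7 ± 11.3 in the BMS911543 line, 11.8 ± 11.7 in the INC424 line and 10.5 ± 8.06 in the SAR302503 line, against 591 ± 26.9 in naive cells. In the SAR302503 line the adhesion genes VWF, with 5.38 ± 6.31, and SELP, with 182 ± 23.9, were also lower, against 358 ± 13.1 and 1839 ± 62.1 in naive cells. At 48 h of INC424 12 rose and 10 fell (0.08), and at 4 h 1 rose and 5 fell (-0.13), or 4 and 8 without that library. These are 53.7% at 48 h and 14.6% at 4 h, where 33.9% and 8.37% of all genes passed. At 4 h 16.7% of all genes passed without that library. With DMSO 10 rose and 8 fell against naive cells (0.17), 43.9% of the list, where 26.0% of all genes passed. Movement in both directions was thus not particular to the lines.

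**Figure D4:**
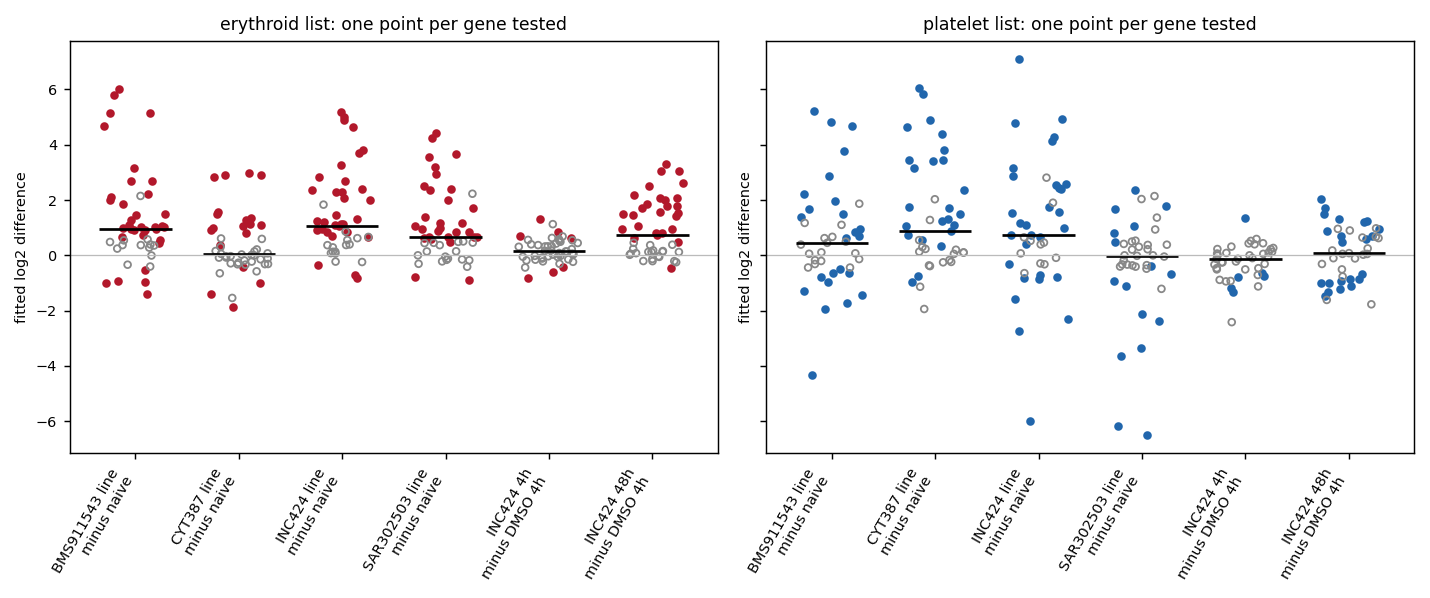
Fitted log2 difference of each tested gene of the erythroid (left, 47 genes) and platelet (right, 41 genes) lists in 6 comparisons; filled points passed limma's adjusted p threshold of 0.05, open points did not, and black bars are list medians. Erythroid medians are 0.94 in the BMS911543 line and 1.07 in the INC424 line, and the platelet list spreads in both directions.

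Set beside these lists over the 8 group means, which share libraries and depth, the factor levels ran as follows. The mean log2 erythroid level had a Pearson r of -0.68 with GATA2 (Spearman rho -0.74), 0.65 with TAL1 (rho 0.76), 0.57 with NFE2 (rho 0.40) and 0.56 with KLF1 (rho 0.55). Pearson r was 0.46 with MEIS1 (rho 0.60), 0.36 with ZFPM1, 0.31 with GATA1, 0.20 with RUNX1, 0.17 with FLI1 and 0.09 with GFI1B. The order of the factors thus depended on the measure. Without replicate 2 of the CYT387 line GATA2 stood at -0.63 (rho -0.64) and TAL1 at 0.61 (rho 0.71). Across the 4 lines the order of GATA2 loss (BMS911543, INC424, SAR302503, CYT387) was not the order of the erythroid medians, which the INC424 line led. At 48 h of INC424 the erythroid median of 0.74 came with KLF1 and NFE2 above DMSO and a GATA2 difference that did not pass. With the platelet level the largest r was 0.52, for MEIS1, and FLI1 had 0.22, or 0.53 without replicate 2 of the CYT387 line.

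Partners of these factors moved in both directions. Of 38 listed, 36 were tested, and 10 rose and 4 fell in the BMS911543 line, 6 and 8 in the INC424 line, 6 and 6 in the SAR302503 line and 7 and 11 in the CYT387 line. The called shares were 38.9%, 38.9%, 33.3% and 50%, where 24.6%, 22.5%, 19.3% and 22.3% of all genes passed. Leaving that CYT387 replicate 2 out, 13 rose and 8 fell in BMS911543, 9 and 12 in INC424 and 10 and 11 in SAR302503. Of all genes 35.4%, 33.3% and 30.6% then passed in these lines. In the CYT387 line itself 8 rose and 8 fell, where 18.4% of all genes then passed. SSBP2, which binds LDB1, had 454 ± 39.6, 733 ± 77.3 and 668 ± 85.4 normalised counts in BMS911543, INC424 and SAR302503 cells, against 209 ± 52.7 in the naive group. MYB, a progenitor factor, had 3436 ± 78.7 in the INC424 line, against 10303 ± 449 in naive cells. ETS1 had 1232 ± 261 in the SAR302503 line, against 9183 ± 1525 in naive cells, a log2 difference of -2.91. At 48 h of INC424 11 partners rose and 3 fell, 38.9% of those tested and near the 33.9% of all genes. Among the 11 were LDB1, with 28086 ± 1143, against 11660 ± 1440 with DMSO, and the FLI1 relative ERG, with 6221 ± 207, against 2258 ± 72.4. Without replicate 2 of the CYT387 line 18 rose and 4 fell, where 44.5% of all genes passed. With DMSO 2 partners rose and 7 fell against naive cells, 25% of those tested and near the 26.0% of all genes.

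Factors of other myeloid or lymphoid lineages and relatives of the members were counted in the same way. Of 17 tested factors of other lineages, 8 fell in the BMS911543 line, 7 in the INC424 line and 5 in the SAR302503 line, and 0 rose; in the CYT387 line 3 rose and 3 fell. The called shares were 47.1%, 41.2%, 29.4% and 35.3% in that order, where 24.6%, 22.5%, 19.3% and 22.3% of all genes passed. There were 1 that rose and 9 that fell in BMS911543, 2 and 7 in SAR302503 and 4 and 4 in CYT387 without replicate 2 of the CYT387 line. Of all genes 35.4%, 30.6% and 18.4% then passed. With DMSO 0 of these factors rose and 3 fell against naive cells, 17.6% of the list, where 26.0% of all genes passed. SPI1 (PU.1), which antagonises GATA1 in progenitors, had 780, 552 and 1096 normalised counts on average in BMS911543, INC424 and SAR302503 cells, against 3062 in the naive group. Of 19 tested family relatives, 1 rose and 6 fell in the BMS911543 line, 3 and 8 in the INC424 line, 2 and 7 in the SAR302503 line and 3 and 4 in the CYT387 line, which are 36.8%, 57.9%, 47.4% and 36.8% of the list. BMS911543 had 1 that rose and 10 that fell without replicate 2 of the CYT387 line, and CYT387 had 4 and 4. Of all genes 35.4% and 18.4% then passed. With DMSO 1 relative rose and 9 fell against naive cells, 52.6% of the list, where 26.0% of all genes passed. Falls thus outnumbered rises in this control too. ZFPM2, the paralogue of ZFPM1, had 2094 ± 99.3 in the BMS911543 line, against 734 ± 72.4 in naive cells (log2 difference 1.52). MEIS3 had 20.4 ± 2.26 there, against 254 ± 62.6.

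Among each other, the members' group means ran closest for TAL1 and ZFPM1 (Pearson r 0.80 over 8 groups), TAL1 and KLF1 (0.77), GATA1 and NFE2 (0.75) and RUNX1 and ZFPM1 (0.72), and most opposed for GFI1B and ZFPM1 (-0.59). Without replicate 2 of the CYT387 line the 4 close pairs were at 0.84, 0.66, 0.79 and 0.72 in the same order, GFI1B and ZFPM1 at -0.78, and GATA1 and RUNX1 were the most opposed, at -0.87 against -0.44 with all libraries. Of 13991 genes with a mean normalised count of at least 50, RECK (r 0.98) and ALOX5 (0.97) were the closest to GATA2. For RUNX1 it was RTEL1 (0.99), for MEIS1 SYNE2 (0.98), for GATA1 CCT6B (0.96) and for KLF1 AP003068.18 (0.96). Without replicate 2 of the CYT387 line CCT6B ranked 3, RECK 4 and RTEL1 4, while ALOX5 ranked 130, AP003068.18 80 and SYNE2 423. The ranks of these last 3 beside GATA2, KLF1 and MEIS1 thus depended more on that library. Their r values without it are not given.

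Some member counts can hold reads of other genes, since the strand used in counting is not given in the sources used here. TSC1 overlaps GFI1B on the opposite strand and the pseudogene EZH2P1 lies within RUNX1 on the same strand. The antisense gene FLI1-AS1 had 218 ± 31.0 normalised counts in the BMS911543 line and 62.0 ± 2.51 in naive cells, against 5924 and 4700 for FLI1 itself.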

How the data were processed

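The 24 libraries come from poly(A) RNA of SET2 cells cut with RNase III and were read on an Ion Proton, per the labels' protocols. The deposited table holds normalised signal, named by the authors as normalised counts; from the values, each library is read counts divided by 1 factor. The submitters' processing notes list, with no role, DESeq 1.10.1, HTSeq 0.5.3p3, BWA 0.7.5.1 and the builds hg19 and GRCh37. Every value was a whole multiple of a library's step within 0.01 (100% of values), giving whole reads; for 3 libraries that step lay within 0.01 of 1, which says nothing of how they were made. Totals were 21770721 to 36160750 reads. The labels say that 9 libraries were run again or on 2 lanes.

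Values were log2-transformed after adding 1. A normalised count of 10 or more in 3 or more samples was required, which left 20154 genes for a single limma 3.58.1 fit (R 4.3.3, trend, 16 residual degrees of freedom, two-sided), adjusted by Benjamini-Hochberg over all of them within each of 16 comparisons, threshold 0.05. Balances used exact permutation tests (scipy 1.17.1). edgeR 4.0.16 and DESeq2 1.42.0 ran on the recovered reads as alternatives, calling 4177 and 4996 genes for the mean of the lines against naive cells, where limma called 4396, beside other pseudocounts (0.5, 10), filters (none, 50), scalings, weights, blocks and libraries left out. The code was tested on simulated data. Same-numbered replicates deviated together (all 3 correlations over 0.1: 0.10, 0.31 and 0.23) only between the CYT387 and INC424 lines, where a replicate block left the count of members at 3. The smallest chi-square per gene between replicates was 6.69, so none were duplicates. Members, lists and the naming rule (all members; per list and comparison up to 4 genes with the largest change past the threshold; the 3 nearest genes) were chosen with earlier results of these data known, and some genes the rule names are not reported here. Lists were partner, erythroid, platelet, other-lineage factor and family genes, and squamous, stroma and macrophage, and lymphoid markers. Transcript lengths are from GENCODE 29.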

Additional observations from a re-analysis of the deposited data

Results flagged for a closer look

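Differences between lines or times under the same contrast were tested directly as contrasts of the fit, and 15 of them passed, 13 between lines and 2 between times. GATA2 was lower in the BMS911543 line than in the CYT387 line by a log2 difference of -1.50, and it was -2.01 without the low replicate 2 of the CYT387 line. It was also lower in BMS911543 than in SAR302503 at -1.09, and higher in CYT387 than in INC424 at 0.76, a call held in 14 of 40 alternatives. TAL1 was lower in the CYT387 line than in the INC424 line at -0.71, or -0.37 without that replicate, and higher in BMS911543 than in CYT387 at 0.59, a call lost without it (0.25, limma adjusted p = 0.110) and without BMS911543 replicate 1 (adjusted p = 0.0588). RUNX1 was higher in the BMS911543 line than in the CYT387 line at 0.65, and lower in CYT387 than in INC424 at -0.65 and than in SAR302503 at -0.52. ZFPM1 was higher in BMS911543 than in CYT387 at 0.89, a call lost without BMS911543 replicate 1 (limma adjusted p = 0.0567), and higher in INC424 than in SAR302503 at 0.80, held in 33 of 40 alternatives. ZFPM1 at 1.09 and MEIS1 at 0.58 were higher in the BMS911543 line than in the SAR302503 line. The MEIS1 call was lost without BMS911543 replicate 1 (limma adjusted p = 0.0760) or 2 (adjusted p = 0.0768) or SAR302503 replicate 3 (adjusted p = 0.148). FLI1 was higher in the BMS911543 line than in the INC424 line at 0.66, a call held in 10 of 40 alternatives. Between 48 h and 4 h of INC424, NFE2 was higher at 0.91 and RUNX1 lower at -0.49. No cause was tested for any of them.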

How the results depend on the processing

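Leaving out each library in turn gave 3 to 8 members for BMS911543 against naive cells, 0 to 4 for CYT387, 3 to 5 for INC424, 0 to 2 for SAR302503 and 2 to 6 for the mean of the lines. It gave 0 to 2 for 4 h against DMSO, 3 to 6 for 48 h against DMSO, 2 to 7 for 48 h against 4 h, 1 to 7 for the INC424 line against 48 h and 3 to 7 for DMSO against naive cells. Between lines it gave 2 to 5 (BMS911543 and CYT387), 0 to 2 (BMS911543 and INC424), 2 to 6 (BMS911543 and SAR302503), 2 to 4 (CYT387 and INC424), 1 to 4 (CYT387 and SAR302503) and 0 to 3 (INC424 and SAR302503). Most maxima came without replicate 2 of the CYT387 line. More of all genes passed then too in most comparisons. The share was 35.4% for BMS911543 and 37.8% for DMSO against naive cells, where it was 24.6% and 26.0% with all libraries. Under the settings below the share of all genes that passed is not given. Their member counts can therefore not be read as particular to the members.

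Weights per library gave 8, 4, 7 and 6 members for BMS911543, CYT387, INC424 and the mean of the lines against naive cells, 5 at 4 h and 8 at 48 h against DMSO, 7 for 48 h against 4 h, 7 for the INC424 line against 48 h and 9 for DMSO against naive cells. Between lines weights gave 7 (BMS911543 and CYT387), 4 (BMS911543 and INC424), 5 (CYT387 and INC424), 3 (CYT387 and SAR302503) and 2 (INC424 and SAR302503). Leaving out the 4 libraries richest in squamous RNA was an alternative chosen after seeing the data. BMS911543, CYT387 and INC424 against naive cells then gave 8, 5 and 7, and DMSO against naive cells 9. There were 4 at 4 h and 7 at 48 h against DMSO, 7 for 48 h against 4 h and 7 for the INC424 line against 48 h. Between lines it gave 4 (BMS911543 and INC424) and 5 (CYT387 and INC424). Only replicate 1 of the SAR302503 line was left, so counts that include that line are not given. Fitting only the groups compared gave 7 for BMS911543 and 1 for SAR302503 against naive cells, 3 at 4 h, 7 at 48 h, 8 for 48 h against 4 h and 8 for the INC424 line against 48 h; it gave 0 for each of BMS911543, INC424 and SAR302503 set with CYT387, and 2 for BMS911543 and INC424. Libraries run once gave 2 and 1 for BMS911543 and INC424 against naive cells and 0 for the INC424 line against 48 h. Between lines they gave 0 (BMS911543 and INC424) and 1 (CYT387 and INC424). This setting kept replicate 2 of the CYT387 line. It left only replicate 1 with DMSO, replicate 3 at 4 h of INC424 and replicate 2 of the SAR302503 line. Counts for those groups are therefore not given. Upper-quartile scaling gave 1 for SAR302503 against naive cells, and a term for libraries run again gave 1 for CYT387. The 1 call between BMS911543 and INC424 became 0 under a pseudocount of 10, no filter, TMM, upper-quartile scaling, no trend, the run-again term and edgeR, and 2 under DESeq2; that between INC424 and SAR302503 became 0 under no trend and edgeR. Upper-quartile scaling moved the median of all genes by 0.13 for BMS911543 against CYT387.

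With the replicate block the call between BMS911543 and INC424 also became 0 and the RUNX1 call in the INC424 line against 48 h was lost; the block changed no other call of a member. Outside the pair named under processing, same-numbered libraries share only a number.

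With a library left out, NFE2 in CYT387 against naive cells ran from -0.35 to 0.37 and FLI1 in BMS911543 against CYT387 from -0.30 to 0.43. Directions turned for NFE2 in CYT387 against naive cells (0.31 with weights, 0.37 without replicate 2 of CYT387 or without the 4 libraries) and KLF1 there (0.34 without the 4). They also turned for BMS911543 against CYT387 in FLI1 (-0.29 with weights, -0.30 without replicate 2 or the 4) and GFI1B (-0.37 with weights, -0.34 without the 4). An uncalled value that changed sign and stayed uncalled was not counted. The GATA1 to GATA2 balance ran from 1.72 to 1.92 (BMS911543), -0.12 to 0.33 (CYT387), 1.08 to 1.22 (INC424), 0.57 to 0.74 (SAR302503), 0.42 to 0.56 (4 h) and 0.19 to 0.27 (48 h) with a library left out. The KLF1 to FLI1 balance ran from -0.03 to 0.18, -0.60 to -0.30, 0.57 to 0.69, 0.22 to 0.63, 0.46 to 0.69 and 0.90 to 1.13 in the same order. The cause was not tested, except that fewer libraries enter where some are left out.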
